A study of Mus musculus with 9 samples.

Results

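Integrins are the receptors by which cells hold on to the extracellular matrix, and focal adhesions are the plaques of adaptor, kinase and actin-binding proteins that join them to the cytoskeleton. The genes described here were all 24 integrin subunit genes found in the deposited table by symbol (16 alpha and 8 beta) and 18 named genes of the adhesion plaque, 42 of 18504 genes in all. The rule names gene symbols only and uses no measured value. The table gives FPKM, fragments per kilobase of transcript scaled to mapped fragments, so levels can be set side by side between genes.

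Each integrin is a pair of 1 alpha and 1 beta subunit. The alpha subunit largely sets which matrix protein is bound: Itga3 and Itga6 bind laminin, Itga5 and Itgav bind proteins with an RGD motif such as fibronectin and vitronectin, and Itgb1 is the partner of most alpha subunits. Talin (Tln1, Tln2) and kindlin (Fermt1, Fermt2) bind the beta tail and switch the receptor on, vinculin (Vcl) and alpha-actinin (Actn1, Actn4) tie it to actin, and the kinases Ptk2 (FAK) and Src signal from the plaque through the scaffolds Bcar1 and Pxn. Yap1, the coactivator that the series perturbs, is held back by the Hippo kinases and is known to respond to adhesion and actin tension.

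Polyadenylated RNA was sequenced in 9 libraries of J1, an embryonic stem (ES) cell line from mice of strain 129S4/SvJae, used at passages 5 to 7. The undifferentiated libraries were Yap1_OE, which overexpresses Yap1, with its control BirA; Yap1_KO1 and Yap1_KO2, labelled as knockouts, with the control ESC; and Yap1_KD1, a knockdown, with a control named Control, called the knockdown control below. In the differentiated pair, ES cells were differentiated without (dESC_control) or with the knockdown (dESC_Yap1_KD1). The sources used here do not give the way and length of differentiation, the vectors or the edited site. Apart from the knockout-labelled pair each group was 1 library.

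Depth, read from the steps between low FPKM values, was about 9.16 M to 22.2 M fragments per library (M for mega), with 19.2 M in dESC_control and 13.1 M in dESC_Yap1_KD1. Yap1 RNA stood at 12.2% of the control in Yap1_KD1 and 16.0% in dESC_Yap1_KD1, but at 87.6% and 42.2% of ESC in the libraries labelled Yap1_KO1 and Yap1_KO2. Directions given for that pair are those of the libraries so labelled. The ES cell markers Pou5f1, Nanog, Sox2 and Zfp42 were at 49.7 FPKM or more in all 9 libraries, and 3 of the 4 were at least 2-fold lower in dESC_control than in the knockdown control. Of the leukocyte markers Ptprc was at 0.0129 FPKM or less and Spi1 at 0.338 or less in every library, while in the undifferentiated ones Laptm5 was at 18.3 to 57.9 and Coro1a at 5.43 to 12.0.

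The promoters of 5 members are shown because these genes carry the main pattern: Zyx, Vcl, Itgb1 and Itga3 rose on differentiation and were lower in the differentiated knockdown, and Itgb7 moved the other way. The sequences are RefSeq's on GRCm38.p6, 250 bases before and 50 after a transcription start, read 5′ to 3′ on the gene's strand. Capitals mark GGAATG on either strand (the core of the motif of TEAD factors, the DNA-binding partners of Yap1), TGANTCA (AP-1, with any middle base) and the CArG box (bound by SRF). The FPKM values were made on mm9, another build, and no coordinate was carried between them.
Zyx (chr6:42349578-42349877, + strand): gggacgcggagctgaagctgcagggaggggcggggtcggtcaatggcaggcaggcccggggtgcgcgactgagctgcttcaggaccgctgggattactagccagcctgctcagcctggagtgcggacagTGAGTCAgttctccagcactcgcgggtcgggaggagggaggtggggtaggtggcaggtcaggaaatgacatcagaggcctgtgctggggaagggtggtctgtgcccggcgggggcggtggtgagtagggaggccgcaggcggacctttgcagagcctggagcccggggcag
Vcl (chr14:20929148-20929447, + strand): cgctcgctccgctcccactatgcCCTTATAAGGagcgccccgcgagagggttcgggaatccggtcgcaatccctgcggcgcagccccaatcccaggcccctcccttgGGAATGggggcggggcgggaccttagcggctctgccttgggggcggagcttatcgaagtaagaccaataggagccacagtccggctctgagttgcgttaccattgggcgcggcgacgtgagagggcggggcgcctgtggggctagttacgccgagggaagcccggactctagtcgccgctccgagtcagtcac
Itgb1 (chr8:128685404-128685703, + strand): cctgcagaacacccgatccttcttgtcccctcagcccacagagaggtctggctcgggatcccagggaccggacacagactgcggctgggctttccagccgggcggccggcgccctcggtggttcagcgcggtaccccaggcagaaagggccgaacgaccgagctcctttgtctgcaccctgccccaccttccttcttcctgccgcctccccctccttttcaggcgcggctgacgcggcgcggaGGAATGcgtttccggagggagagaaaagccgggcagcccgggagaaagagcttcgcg
Itga3 (chr11:95069149-95069448, - strand): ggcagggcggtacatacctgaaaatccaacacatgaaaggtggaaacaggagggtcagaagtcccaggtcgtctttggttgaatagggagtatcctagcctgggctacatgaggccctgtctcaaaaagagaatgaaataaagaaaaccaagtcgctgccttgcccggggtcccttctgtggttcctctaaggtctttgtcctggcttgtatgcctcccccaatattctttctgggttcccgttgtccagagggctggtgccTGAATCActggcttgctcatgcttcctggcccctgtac
Itgb7 (chr15:102231886-102232185, - strand): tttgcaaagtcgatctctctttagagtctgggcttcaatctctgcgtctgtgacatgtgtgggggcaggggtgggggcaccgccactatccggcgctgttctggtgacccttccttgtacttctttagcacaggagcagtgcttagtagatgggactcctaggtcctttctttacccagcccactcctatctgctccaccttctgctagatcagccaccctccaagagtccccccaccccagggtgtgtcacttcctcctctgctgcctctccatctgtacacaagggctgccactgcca

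In these windows the AP-1 letters began at -121 from the start of Zyx. In Vcl the CArG box began at -227 and GGAATG at -143, and in Itgb1 GGAATG began at -7. The Itga3 window is that of the downstream of its 2 listed starts, with TGANTCA at 12 bases past the start, and the upstream start held none of the 3 motifs. Itgb7 held none. Across the 38 listed promoters of 31 matched members, 4 had GGAATG, 4 had TGANTCA and 3 had a CArG box. Among all 32851 promoters of the same length 14.7% had GGAATG, 7.81% had TGANTCA and 1.63% had a CArG box. The motifs do not overlap each other in the promoters shown, and a match describes letters and not a bound site.

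**Figure D1:**
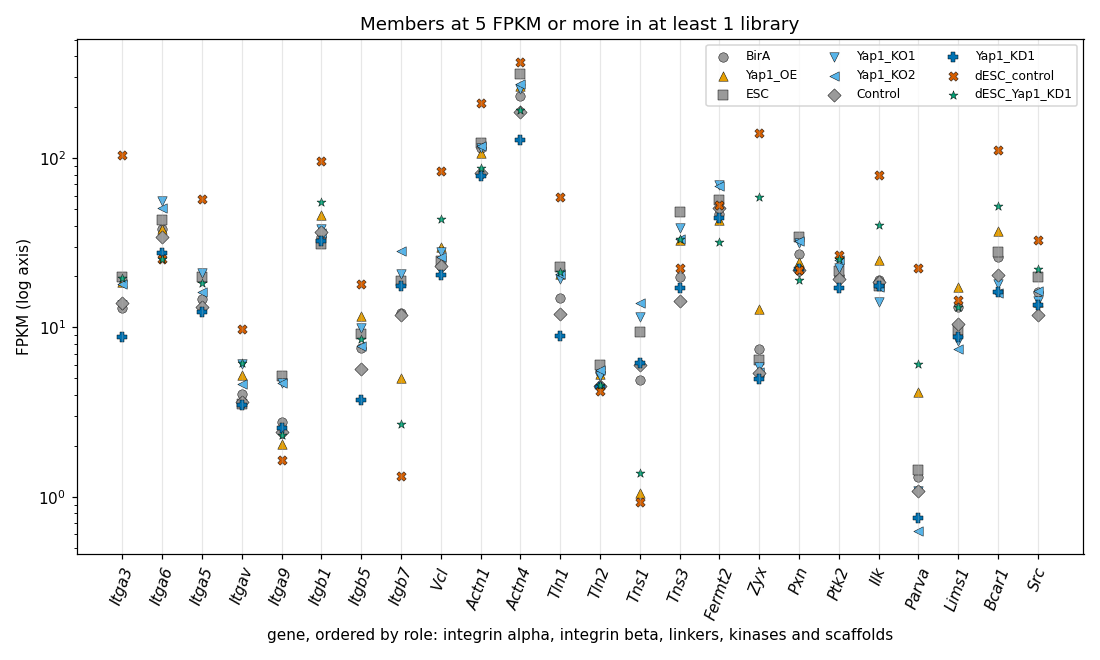
FPKM (log axis) of the 24 members that reached 5 FPKM in at least 1 library, with 1 symbol for each of the 9 libraries. Zyx, Parva, Itga3, Bcar1 and Ilk stand apart in dESC_control, where they were at 140, 22.6, 104, 112 and 79.0 FPKM, while Itgb7 and Tns1 have their lowest values there.

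In undifferentiated cells the integrin repertoire was small. Of the 24 integrin genes 8 reached 5 FPKM in any library (Itga3, Itga5, Itga6, Itga9, Itgav, Itgb1, Itgb5 and Itgb7), as did 16 of the 18 plaque genes. Across the 7 undifferentiated libraries Itga6 ran from 27.5 FPKM over a median of 38.1 to 55.8, and Itgb1 from 31.1 over 36.2 to 45.9. Their pair is the laminin receptor alpha6 beta1. These 2 genes had the highest levels among the integrins in each of the 7 libraries and changed places between them, so their order is not fixed beyond their spread.

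Itga3 and Itga5 came next among alpha subunits and did not separate from each other, at 8.81 to 19.9 FPKM (median 14.0) and 12.3 to 21.1 (median 16.1). Itgb7, known from lymphocytes as the partner of Itga4 and Itgae, was at 5.01 to 28.4 FPKM with a median of 17.5. Its lymphocyte partners were low: Itga4 was at 0.081 FPKM or less and Itgae at 1.82 or less in the undifferentiated libraries. Itgb5, a partner of Itgav, was at 3.72 to 11.6 FPKM and Itgav itself at 3.50 to 6.09. Itga9, a receptor subunit for tenascin and osteopontin, was at 2.04 to 5.15 FPKM.

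Among plaque genes the crosslinkers were the most abundant per length, with Actn4 at 129 to 314 FPKM and Actn1 at 78.1 to 123. The ranges of these alpha-actinins did not overlap. Fermt2, the kindlin of most solid tissues, was at 42.8 to 69.1 FPKM, and the epithelial kindlin Fermt1 at 0.762 or less. Tln1 was at 8.91 to 22.8 FPKM and its paralog Tln2 at 4.43 to 6.04. Zyx, a LIM protein of mature adhesions and stress fibres, was at 4.94 to 12.9 FPKM, and Parva, which links Ilk to actin, at 0.63 to 4.14. Ilk itself, a pseudokinase that binds the beta tail, was at 14.2 to 25.0.

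The other 18 members stayed below 5 FPKM in every library, and 12 of them below 1. They include the collagen receptors Itga1, Itga2, Itga10 and Itga11 (at most 0.432 FPKM), the platelet subunit Itga2b (at most 0.933) and Itgb2, the leukocyte beta subunit (at most 0.311). Cav1, which coats caveolae, was listed at 0 in 6 of the 7 undifferentiated libraries and at 0.609 FPKM in dESC_control. Itgb8 was listed at 0 in the same 6 libraries and at 0.740 in dESC_control. Ratios of such genes are not given.

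The first comparison asks which adhesion genes differ between differentiated and undifferentiated control cells. Zyx, Parva, Itga3, Bcar1, Ilk, Itga5, Tln1, Vcl, Itgb1 and Itgav rose, and Itgb7 and Tns1 fell. The fit set dESC_control against BirA, ESC and the knockdown control on log2(FPKM + 1), using limma, with p-values of 12564 genes adjusted by Benjamini-Hochberg. Of the 42 members 30 passed the filter of 1 FPKM in a library compared. Of these 12 were called higher and 3 lower, where 9.93% of all genes tested were called higher and 5.05% lower. The 12 include Fermt1 and Itga8, which passed the filter through dESC_control alone, and the 3 include Itgal and Tns1, which passed it through the controls alone. These counts are therefore no support by themselves. Another filter, chosen after the data were seen, was a mean of 5 FPKM over all 9 libraries. As 7 of these are undifferentiated, it keeps genes high in such cells more readily, and Parva fell out with a mean of 4.35. By this filter 9 of 22 members were called higher and 2 lower (Itgb7 and Tns1), beside 5.99% and 5.17% of 8408 genes. Itgb7 and Tns1 were below 5 FPKM in both differentiated libraries and passed through the undifferentiated ones. Itgav, called higher, had a mean of 5.17 FPKM but a median of 4.02 in the undifferentiated libraries. The counts by this filter are therefore no support by themselves either.

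The spread in this fit comes from 3 controls that each belong to another arm, and the lone dESC_control is assumed to vary like them. Without BirA 2 of the 15 calls were left (Zyx with adjusted p = 0.0329 and Parva with 0.0409, limma), with 211 genes called in all, against 1882 with it. Leaving out ESC gave 17 called members and leaving out the knockdown control 14, without Tns1 (adjusted p = 0.0571, limma). With no filter on low values 10 of the 15 calls were left, and Itga5 (adjusted p = 0.0654, limma), Itgal (0.0625), Itgav (0.0527), Tln1 (0.115) and Tns1 (0.103) were lost. Nothing in the labels says that libraries came from separate cultures, so p-values here measure only the spread between these libraries, which may be technical.

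A fit of both differentiated against all 7 undifferentiated libraries, chosen after the data were seen, takes its spread from all 9 and so includes the changes of Yap1. It called 11 members higher and 4 lower (limma, 12871 genes), where 16.0% of all genes were called higher and 11.9% lower. Among these calls, Fermt1 and Itga8 passed the filter through differentiated libraries alone, and Itgae and Itgal through undifferentiated ones alone. The counts are therefore no support by themselves. This fit holds every library of the first, so overlap between their calls is partly built in. Of the 15 calls of the first fit 13 were called again. Itga5 (adjusted p = 0.0675, limma) and Tln1 (0.0643) were not, while Src and Itgae were added.

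**Figure D2:**
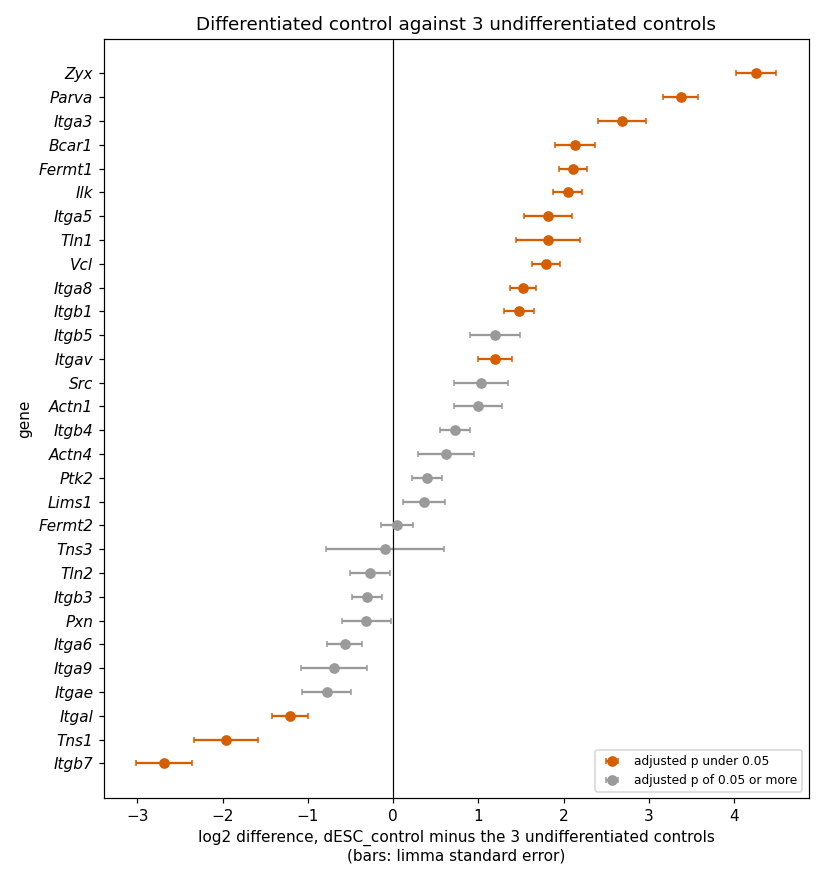
Log2 difference of dESC_control from the 3 undifferentiated controls (points) with limma's standard error (bars) for the 30 members tested, ordered by size. Orange points passed at an adjusted p of 0.05: 12 on the higher side, from Itgav at 1.19 to Zyx at 4.26, and 3 on the lower side.

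Among receptor subunits, the laminin-binding Itga3 was at 13.1 FPKM in BirA, 19.9 in ESC and 14.0 in the knockdown control, and at 104 in dESC_control. The undifferentiated Yap1_OE, Yap1_KO1, Yap1_KO2 and Yap1_KD1 had 18.5, 13.5, 18.2 and 8.81 FPKM. No undifferentiated library came near the level of dESC_control, and the log2 change was 2.68 (SE 0.28, adjusted p = 0.0102, limma). The other differentiated library, dESC_Yap1_KD1, was at 19.6 FPKM. The fibronectin receptor subunit Itga5 was at 14.6, 19.9 and 13.1 FPKM in those 3 controls and 57.7 in dESC_control (log2 change 1.82, SE 0.28, adjusted p = 0.0222, limma). Itgb1, the shared partner, went from 34.4, 31.1 and 36.5 FPKM to 96.2 (1.48, SE 0.18, adjusted p = 0.0132, limma). Both lay above all 7 undifferentiated libraries.

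Itgav rose to 9.76 FPKM from 3.52 to 4.02 in the controls (log2 change 1.19, SE 0.20, adjusted p = 0.0272, limma). Its partner Itgb5 was at 18.1 FPKM against 5.71 to 9.11 and missed the threshold, with a log2 difference of 1.20 (SE 0.29, adjusted p = 0.0638, limma). Itgb4, the hemidesmosome subunit that pairs with Itga6, was at 2.12 FPKM against 0.797 to 1.04 (adjusted p = 0.0639, limma). Itga6 was the exception among the abundant alpha subunits, at 25.5 FPKM against 34.1 to 43.3, with a log2 difference of -0.57 (SE 0.20, adjusted p = 0.137, limma).

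The subunit make-up thus differed. Itga6 gave 43.7% to 53.3% of all alpha subunit FPKM in the 7 undifferentiated libraries and 12.6% in dESC_control. Itga3 gave 12.9% to 21.3% and then 51.3%. The summed alpha FPKM was 61.2 to 105 and then 203, and the summed beta FPKM 56.3 to 74.7 and then 120. The order of the alpha genes in dESC_control was Itga3, Itga5, Itga6, Itgav. With 1 library their neighbours in that order have no measured spread.

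Itgb7 took the opposite course to the other abundant beta subunits. It was at 12.1 FPKM in BirA, 18.9 in ESC, 11.8 in the knockdown control and 1.32 in dESC_control, a log2 change of -2.69 (SE 0.33, adjusted p = 0.0134, limma). Its share of beta subunit FPKM was 7.79% to 37.9% in undifferentiated libraries and 1.10% in dESC_control. Itgal, the alpha subunit of the leukocyte receptor LFA-1, was at 1.39 to 2.06 FPKM in the controls and 0.155 in dESC_control. Itgae, which pairs with Itgb7, was at 0.255 FPKM against 0.768 to 1.71 and missed the threshold (adjusted p = 0.139, limma). Of 4 leukocyte markers measured, 1 was at least 2-fold lower than in the knockdown control, Laptm5 at 7.48 FPKM against 24.0. Coro1a was at 8.88 against 9.98, Spi1 at 0.216 against 0.186, and Ptprc at 0 in both.

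**Figure D3:**
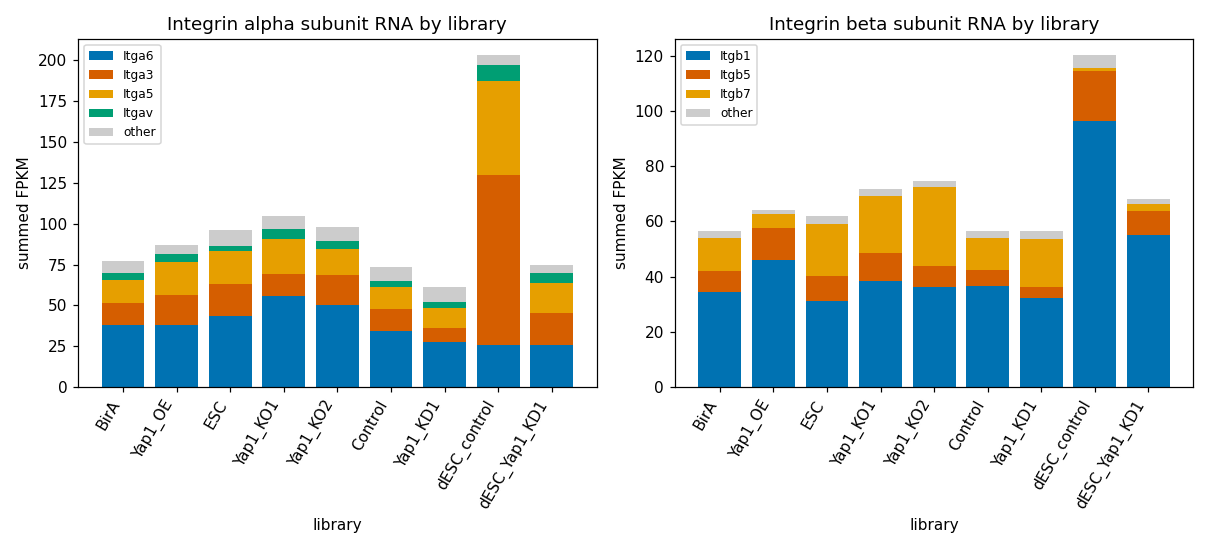
Summed FPKM of integrin alpha (left) and beta (right) genes in each library, with the abundant genes in colour and all others in grey. Itga3 makes up 51.3% of the alpha bar of dESC_control and 26.3% of that of dESC_Yap1_KD1, and Itgb7 is 1.10% and 3.94% of their beta bars.

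Among the 9 activators and actin linkers Tln1, Vcl and Fermt1 rose and Tns1 fell. Of these, Fermt1 passed the filter through dESC_control alone and Tns1 through the controls alone. Tln1 was at 14.9 FPKM in BirA, 22.8 in ESC, 12.1 in the knockdown control and 59.0 in dESC_control (log2 change 1.82, SE 0.37, adjusted p = 0.0435, limma). Tln2 was at 4.22 FPKM there against 4.51 to 6.04, so Tln1 was 93.3% of the summed talin FPKM in dESC_control and 66.8% to 79.6% in the undifferentiated libraries. Vcl went from 22.9, 24.8 and 23.1 FPKM to 84.1 (1.79, SE 0.17, adjusted p = 0.00748, limma). The 3 controls of Vcl lay close together, and no undifferentiated library exceeded 29.7 FPKM.

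Fermt1 was at 4.04 FPKM in dESC_control and at 0.224 or less in the 3 controls. Fermt2 was at 52.8 FPKM against 46.8 to 56.4, inside the range of the controls, and gave most of the kindlin RNA throughout. Actn1 was at 210 FPKM against 81.7 to 123 (adjusted p = 0.0895, limma) and Actn4 at 368 against 187 to 314 (adjusted p = 0.262, limma).

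The tensins, which tie integrin tails to actin, parted. Tns1 fell to 0.937 FPKM from 4.87 to 9.41 in the controls (log2 change -1.96, SE 0.37, adjusted p = 0.0357, limma). Tns3 was at 22.4 FPKM, within 14.3 to 48.4 in the controls. The FPKM of Tns3 differed 3.38-fold between ESC and the knockdown control, and among the 24 members that reached 5 FPKM it was the only one at least 2-fold apart between the controls on the log2(FPKM + 1) scale.

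Among kinases and scaffolds 4 of 8 tested rose. Zyx was at 7.47 FPKM in BirA, 6.45 in ESC, 5.37 in the knockdown control and 140 in dESC_control, the highest log2 change of the members tested (4.26, SE 0.24, adjusted p = 0.00349, limma). Parva was at 1.32, 1.45 and 1.08 FPKM and then 22.6 (3.37, SE 0.21, adjusted p = 0.00381, limma). Its paralog Parvb, which is no member, was at 25.6, 33.1 and 20.1 FPKM and then 9.93. Parva was thus 1.48% to 18.9% of their summed FPKM in undifferentiated libraries and 69.4% in dESC_control.

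Ilk, which forms a complex with the parvins and Lims1, rose from 19.1, 17.5 and 18.5 FPKM to 79.0 (log2 change 2.05, SE 0.17, adjusted p = 0.00618, limma). Lims1 was at 14.5 FPKM against 9.61 to 13.3 (adjusted p = 0.362, limma). The scaffold Bcar1, phosphorylated by Src when adhesions are stretched, rose from 26.0, 28.1 and 20.5 FPKM to 112 (2.13, SE 0.23, adjusted p = 0.0108, limma). Src was at 32.9 FPKM against 11.9 to 19.8 (adjusted p = 0.101, limma). Ptk2, at 26.9 FPKM against 19.2 to 21.5, and paxillin (Pxn), at 21.8 against 21.8 to 34.3, had adjusted p of 0.206 and 0.50 by limma.

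Against its own arm's control alone, 1 library against 1, dESC_control had 15 members that were 2-fold or more higher and 4 that were 2-fold or more lower. Over all 12436 genes tested 13.1% were 2-fold higher and 10.1% lower. In this pair Fermt1 and Itga8 passed the filter of 1 FPKM through dESC_control alone. Itgae, Itgal and Tns1 passed it through the knockdown control alone. The counts are therefore no support by themselves. By the filter of a mean of 5 FPKM over all 9 libraries, which leans to genes high in undifferentiated cells, 22 members were left. Past 2-fold, 12 of these were higher and 2 lower, with a median log2 ratio of 1.29, beside 10.5% higher, 8.49% lower and a median of 0.033 over all 8426 such genes. The 2 lower were Itgb7 and Tns1, which passed this filter through undifferentiated libraries.

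The same comparison among knockdown libraries shares no library with the first. From Yap1_KD1 to dESC_Yap1_KD1, 9 members were at least 2-fold higher (Zyx, Parva, Bcar1, Tln1, Ilk, Fermt1, Itga3, Vcl and Itgb5) and 4 at least 2-fold lower (Itgb7, Tns1, Itgae and Itgal), where 10.3% and 10.4% of all genes were. Parva and Fermt1 passed the filter only through dESC_Yap1_KD1, and Itgae and Itgal only through Yap1_KD1. At a mean of 5 FPKM 7 of 22 members were higher and 2 lower (again Itgb7 and Tns1), beside 8.63% and 7.90% of all 8426 genes. Zyx went from 4.94 to 58.6 FPKM, 11.9-fold, beside 26.2-fold in the control arm. Parva went from 0.747 to 6.11 FPKM, 8.18-fold beside 21.0-fold. Itga3 went from 8.81 to 19.6 FPKM, 2.22-fold beside 7.46-fold, and Itga5 from 12.3 to 18.3, 1.48-fold beside 4.39-fold. Itgb7 went from 17.5 to 2.69 FPKM, and was 6.52-fold lower beside 8.98-fold. The differences between the arms have 1 library in each cell of the design and were not tested. With a pseudocount of 5 FPKM 2 members were higher and 1 lower in the knockdown arm.

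**Figure D4:**
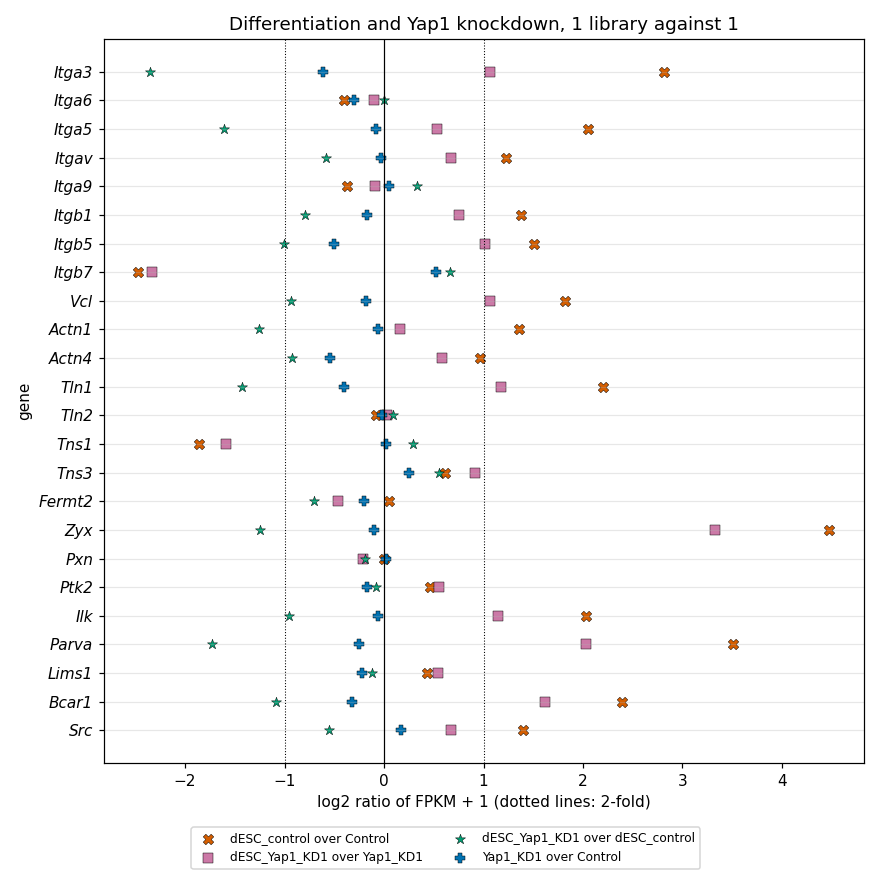
Log2 ratio of FPKM + 1 for the 24 members at 5 FPKM or more, in 4 comparisons of 1 library with 1; dotted lines mark 2-fold. Most orange crosses (differentiation of control cells) lie right of the pink squares (differentiation under knockdown), the green stars (knockdown in differentiated cells) lie mostly left of 0, and the blue crosses (knockdown in undifferentiated cells) stay within 2-fold.

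Next, the knockdown was compared with its control within differentiated cells. Of the 42 members 9 were at least 2-fold lower in dESC_Yap1_KD1 and 0 at least 2-fold higher, where 4.77% and 1.71% of 11845 genes were. The 9 were Itga3, Parva, Itga5, Tln1, Actn1, Zyx, Fermt1, Bcar1 and Itgb5. With each library centred on its median the count was 8, without Itgb5. There is 1 library on each side, so these differences have no replicate check, and they share dESC_control with the comparison of differentiated and undifferentiated controls.

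Itga3 was at 19.6 FPKM under knockdown against 104 (5.32-fold lower) and Itga5 at 18.3 against 57.7 (3.16-fold lower). The knockdown levels of both lie within the range of the 7 undifferentiated libraries, as do those of Itgb5, Tln1, Actn1 and Actn4. Itgb1 was at 55.1 FPKM against 96.2, Itgav at 6.18 against 9.76 and Itgb5 at 8.53 against 18.1. Itga6 was at 25.5 FPKM in both. Itga6 gave 34.2% of the alpha subunit FPKM under knockdown and 12.6% in the control.

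Of the linkers, Tln1 was at 21.4 FPKM against 59.0, Actn1 at 87.2 against 210, Actn4 at 193 against 368 and Vcl at 43.6 against 84.1. Fermt1 was at 1.37 FPKM against 4.04. Their paralogs differed less or not in the same direction: Tln2 was at 4.56 against 4.22 and Fermt2 at 32.0 against 52.8.

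Zyx was at 58.6 FPKM against 140 (2.39-fold lower), Parva at 6.11 against 22.6 (3.69-fold lower), Bcar1 at 52.0 against 112 (2.15-fold lower) and Ilk at 40.3 against 79.0 (1.96-fold lower). All 4 were still above every undifferentiated library. The kinases Src, at 22.1 against 32.9, and Ptk2, at 25.3 against 26.9, were less than 2-fold apart. A few members were higher under knockdown, none of them by 2-fold on the log2(FPKM + 1) scale: Itgb7 at 2.69 against 1.32, Tns3 at 33.3 against 22.4, Tns1 at 1.37 against 0.937 and Itga9 at 2.33 against 1.65.

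Over the 22 members at a mean of 5 FPKM the median log2 ratio was -0.75, with 17 below 0 and 7 at least 2-fold lower. Over all 8426 genes at that mean it was 0.014, with 3.37% at least 2-fold lower. In dESC_control 14 of the 22 members were above all 7 undifferentiated libraries and 5 below, beside 26.5% and 29.7% of all genes at that mean. In dESC_Yap1_KD1 8 were above and 4 below, beside 23.5% and 25.9%. All 8 members above the range were lower under knockdown than in dESC_control. The same count over all genes was not made, so this one is no support by itself.

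Markers of other cells moved with these genes. Of 4 smooth muscle markers 3 were at least 2-fold higher in dESC_control than in the knockdown control and 3 at least 2-fold lower under differentiated knockdown. Their summed level was 0.874 to 72.4 FPKM in undifferentiated libraries, 940 in dESC_control and 172 in dESC_Yap1_KD1, most of it Tagln, and Myh11 stayed at 0.350 FPKM or less. Of 4 trophoblast markers 4 were higher on differentiation and 3 lower under knockdown, with sums of 0.527 to 19.7, 78.4 and 16.0 FPKM. The summed ES cell markers were at 1761 to 2360, 1131 and 1493 FPKM, and 1 of the 4, Sox2, was at least 2-fold higher under differentiated knockdown, at 182 against 76.3 (Zfp42 was at 98.3 against 49.7). Of 5 primitive endoderm markers 1 was higher on differentiation and lower under knockdown, Dab2, at 5.90 FPKM in dESC_control and 1.77 in dESC_Yap1_KD1, with sums of 1.74 to 5.53, 8.53 and 4.07. Of 6 fibroblast markers 1 was higher and 1 lower on differentiation, and Postn and Col3a1 were at or near 0. Fewer cells of a type and less RNA per cell cannot be told apart in bulk RNA. The part of these cells in the levels of the adhesion genes was not tested.

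Other genes of the adhesion plaque were read from a list of 52, of which 51 were in the table and 45 tested. By limma 19 rose and 0 fell in dESC_control against the 3 controls, beside 9.93% and 5.05% of all genes tested. Flnc and Flna, actin crosslinkers that bind integrin tails, were among them, Flnc at 71.2 FPKM against 5.18 in the knockdown control and Flna at 259 against 65.6. The LIM proteins Tgfb1i1 (Hic-5, at 11.9 against 0.271), Pdlim7 (at 184 against 32.9), Fhl3 (at 36.2 against 6.04) and Lpp, a relative of zyxin (at 8.49 against 0.953), were as well. Tgfb1i1 and Lpp passed the filter of 1 FPKM through dESC_control alone. Between single libraries 18 of the 51 were at least 2-fold higher in dESC_control than in the knockdown control and 0 lower, beside 13.1% and 10.1% of all genes tested. Here and in the next count the 51 were not filtered. With no filter 8.78% and 6.82% of all 18504 genes were. In this pair Tgfb1i1, Lpp and Fhl2 (0.659 in the knockdown control) reached 1 FPKM in dESC_control alone. The counts of this list on differentiation are therefore no support by themselves. In dESC_Yap1_KD1 against dESC_control 0 were at least 2-fold higher and 8 lower, beside 1.71% and 4.77%, including Tgfb1i1 at 2.69 against 11.9, Flnc at 23.6 against 71.2 and the LIM protein Csrp1 at 123 against 352.

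Integrin ligands, 13 genes, went both ways on differentiation, with 6 called higher and 2 lower by limma among 11 tested, beside 9.93% and 5.05% of all genes. Thrombospondin (Thbs1) was at 106 FPKM in dESC_control against 0.0449 in the knockdown control, and at 15.6 in dESC_Yap1_KD1. Thbs1 passed the filter of 1 FPKM through dESC_control alone and the laminin gene Lama1 through the controls alone. The counts of ligands are therefore no support by themselves. The basement membrane collagens Col4a1 and Col4a2 were at 25.6 and 17.7 FPKM against 4.32 and 1.56. Of the laminin alpha chains listed, Lama5 was at 45.2 against 15.1 and Lama1 at 0.955 against 6.90. Spp1 (osteopontin) was at 23.1 against 166. Fibronectin (Fn1), the ligand of Itga5, was at 140 against 125 and was not called.

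In undifferentiated cells the changes of Yap1 moved few members by 2-fold. Overexpression is described first. Against BirA, Yap1_OE had 1 member at least 2-fold higher, Parva (4.14 FPKM against 1.32), and 2 lower, Tns1 (1.05 against 4.87) and Itgb7 (5.01 against 12.1). Over 11599 genes 1.60% were 2-fold higher and 2.35% lower. Differences under 2-fold on that scale were seen for Zyx, at 12.9 FPKM against 7.47, Itgb5 at 11.6 against 7.56, Bcar1 at 36.9 against 26.0, Tln1 at 20.6 against 14.9 and Itgb1 at 45.9 against 34.4. The median log2 ratio of the 22 members at a mean of 5 FPKM was 0.33, with 14 above 0, beside 0.028 over all genes at that mean. Among ligands Thbs1 was at 7.5 FPKM against 0.413. Of 4 smooth muscle markers 2, and of 4 trophoblast markers 3, were at least 2-fold higher in Yap1_OE, and their part in these differences was not tested.

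Set against all 3 undifferentiated controls, 0 members passed for Yap1_OE (limma, Benjamini-Hochberg over 12057 genes), where 0.116% of all genes did. At an unadjusted p under 0.05 there were 2 higher members, Parva and Zyx, and 2 lower, Tns1 and Itgb7, of 28 tested (8.09% of all genes). Tns1 had a log2 difference of -1.88 (SE 0.36, adjusted p = 0.281, limma), Itgb7 -1.32 (SE 0.32, adjusted p = 0.376), Parva 1.18 (SE 0.24, adjusted p = 0.304) and Zyx 0.91 (SE 0.25, adjusted p = 0.440). Each of these 4 values in Yap1_OE lay outside the range of the other 6 undifferentiated libraries. How often this holds among all genes was not counted. The 3 controls are shared with the fit of dESC_control.

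The libraries labelled Yap1_KO1 and Yap1_KO2 had 0 members called against ESC (limma, Benjamini-Hochberg over 11538 genes), where 0.173% of all genes were called. At an unadjusted p under 0.05 there was 1 higher member, Fermt2, and 2 lower, Bcar1 and Tns3, of 28 tested, in a fit where 23.1% of all genes reached that p. Bcar1 was at 18.1 and 16.0 FPKM against 28.1 (log2 difference -0.69, SE 0.13, adjusted p = 0.15, limma). Fermt2 was at 69.1 and 68.8 FPKM against 56.4 (0.29, SE 0.094, adjusted p = 0.198, limma). For Bcar1, Fermt2 and Itgav both libraries differed from ESC in the same direction by more than the span of the 3 controls. How many of all genes did so was not counted. Itgav was at 6.09 and 4.65 FPKM against 3.52. Itga3 was at 13.5 and 18.2 FPKM against 19.9 and Zyx at 5.85 and 5.43 against 6.45, within that span.

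Under knockdown in undifferentiated cells 0 of the 42 members were at least 2-fold apart, where 0.506% of 11861 genes were higher and the same share lower. Itga3 was at 8.81 FPKM against 14.0, Itgb5 at 3.72 against 5.71, Actn4 at 129 against 187, Tln1 at 8.91 against 12.1 and Parva at 0.747 against 1.08. Of the 24 members at 5 FPKM in a library, 4 differed from the knockdown control by more than the span of the controls, all lower: Itga3, Vcl, Ptk2 and Parva. The share of all genes beyond their span was not counted, so this count is no support by itself. Itgb7 was higher, at 17.5 FPKM against 11.8, but within the span. Over the 22 members at a mean of 5 FPKM the median log2 ratio was -0.13, with 17 below 0, beside 0.010 over all genes at that mean. The controls themselves differed by more: from ESC to the knockdown control the same median was -0.46, with 18 of 22 below 0, beside -0.087 over all such genes.

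A joint limma fit of the knockout-labelled and the knockdown arm, with a term for the arm, called 0 members of 28 tested and 0.0165% of 12128 genes. Unadjusted p values under 0.05 were found for 1 higher member, Itgb7, and 3 lower, Bcar1, Actn4 and Itga3. Their log2 differences were 0.42 (SE 0.17, adjusted p = 0.733, limma), -0.53 (SE 0.15, adjusted p = 0.660), -0.37 (SE 0.12, adjusted p = 0.714) and -0.45 (SE 0.17, adjusted p = 0.733). In the knockdown pairs alone, the log2 ratio of Itga3 was -0.61 in undifferentiated cells and -2.35 in differentiated ones. Whether the effect of Yap1 knockdown differs between the states was not tested, as each state has 1 knockdown library.

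**Figure D5:**
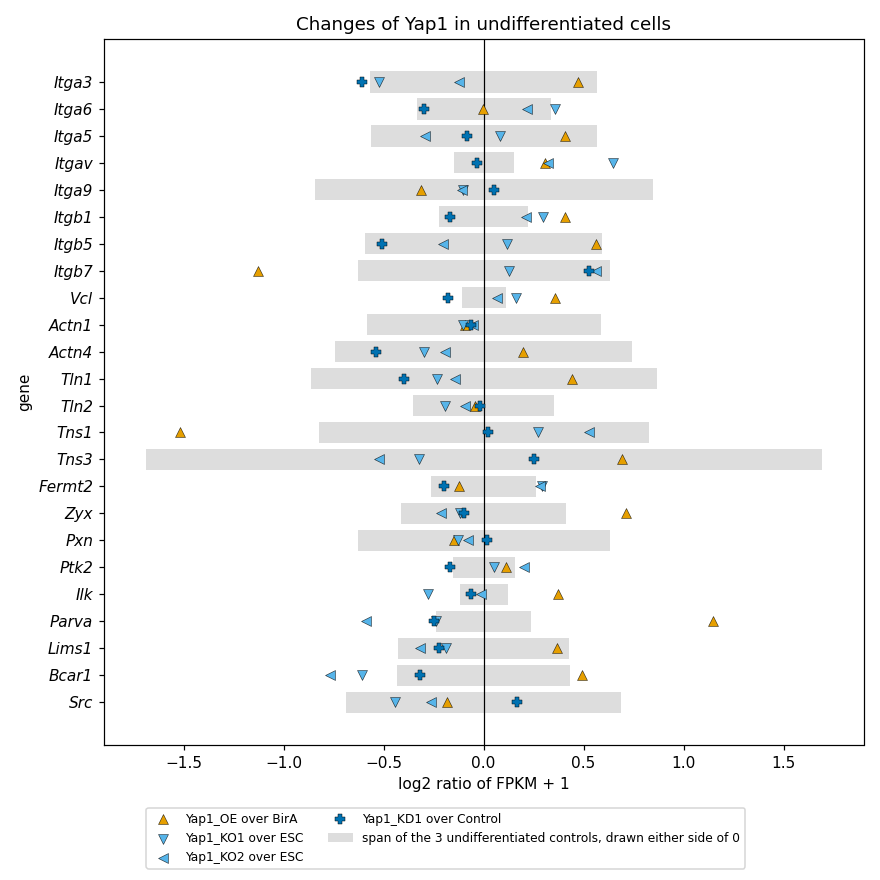
Log2 ratio of FPKM + 1 of the 4 undifferentiated libraries with changed Yap1 over their own controls, for the 24 members at 5 FPKM or more. Grey bars show the span of the 3 controls either side of 0. Yap1_OE lies beyond it for 9 of the 24 members, Yap1_KO1 for 7, Yap1_KO2 for 5 and Yap1_KD1 for 4. The share of all genes beyond their span was not counted.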

How the data were processed

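Polyadenylated RNA of 9 mouse J1 libraries was measured. The authors deposited 1 table of gene values, taken here as FPKM because Cuffdiff gives that unit; TopHat2, Cuffdiff and mm9 are named per the submitters' processing notes, and for versions, annotation and strand: not given in the sources used here. Of 23277 rows, 4746 were blank and 27 had symbols turned into dates; 18504 genes remained. Columns were matched to samples by title. A 0 in such a table can be a failed estimate. The members and lists were chosen with earlier results of these data known. Ratios and tests used log2(FPKM + 1), which understates changes of low genes, over genes at 1 FPKM or more in a library compared; fold values of single genes are ratios of FPKM. Tests used limma 3.58.1 (R 4.3.3), its trend option on, and a Benjamini-Hochberg threshold of 0.05 over all genes, checked on simulated data. Single libraries were compared by a 2-fold rule with no test. Named genes are members at 5 FPKM or more in a library; other adhesion genes and ligands are named by that level and a 2-fold difference, and Fn1, Parvb, Flna and low members were added after their values were seen. Depth came from the ratio of low values that most genes share between libraries and from transcripts of at least 3000 nt. Itgad and Itgax are not analysed here, and 1 gene of the adhesion list is not reported here by name. Alternatives were other pseudocounts, filters, centring, controls, left-out libraries, removal of a GC trend and of 173 small RNA rows.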

Additional observations from a re-analysis of the deposited data

How the results depend on the processing

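Totals of members past a threshold, higher and lower together, stayed within 1.5 times of the reported ones under the pseudocounts, filters, centring, control and small RNA settings run, with these exceptions. In Yap1_OE over BirA 0 members were 2-fold apart with a pseudocount of 5 FPKM and 1 with a filter at 5 FPKM, against 3. From Yap1_KD1 to dESC_Yap1_KD1 3 were with a pseudocount of 5 FPKM, against 13. Of the 4 members 2-fold lower in dESC_control than in the knockdown control 1 was left with that pseudocount and 2 with the filter at 5 FPKM. For dESC_control against the 3 controls no filter gave 15 higher and 1 lower, against 12 and 3, and kept 10 of the 15 calls; Tns1 also lost its call with a pseudocount of 5 FPKM (adjusted p = 0.0677, limma). Leaving out 1 control of that fit gave 2 to 17 called members, against 15, and 2 without BirA; the cause was not tested. No called member changed its sign in the settings run, though calls were lost as given. In the knockout-labelled, joint and overexpression fits 0 members were called under every alternative, limma again, with 3 to 7, 2 to 5 and 4 to 13 members at an unadjusted p under 0.05 in turn, depending on the setting. Leaving out a knockout-labelled library left no residual degree of freedom against ESC, so those ratios are values with no test. No paired analysis was possible because the groups compared share fewer than 2 replicate numbers. Levels under about 1 FPKM rest on few fragments: 1 FPKM of a 2 kb transcript came to 18.3 fragments in the shallowest library and 44.5 in the deepest.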
